A study of Mus musculus with 12 samples.

Results

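The 10 genes described here belong to the cell's answer to low oxygen: the transcription factor subunit gene Hif1a, the oxygen sensor genes Egln1 and Egln3, and the hypoxia-responsive genes Bnip3, Vegfa, Ankrd37, P4ha1, Pdk1, Ndrg1 and Mif. They were taken by symbol from a table of 52632 genes, and all 10 were found and had a mean of at least 1 FPKM (fragments scaled by transcript length and by the fragments of the library) over the 12 libraries. The libraries are total RNA sequencing of CD4 T cells sorted from mouse kidneys, 3 in each of 4 groups, all on the C57BL6/J background. KO IRI and KO control came from mice bred in house and labelled CD4 Keap1 KO. Keap1 encodes the adaptor that marks the transcription factor NRF2 for breakdown. WT IRI and WT control came from wild-type mice bought from Jackson laboratory, so genotype and the source of the mice cannot be told apart.

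The IRI groups were harvested 24 h after ischemia-reperfusion injury, in which both renal pedicles were clamped for 30 min. No label states sham surgery for the controls, the promoter or Cre behind the deletion, or separate animals for the 3 libraries of a group. The p-values therefore cover library-to-library spread, which may be technical. In bulk libraries such as these, fewer cells of a type and less RNA per cell cannot be told apart.

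In normal oxygen, prolyl hydroxylases encoded by the Egln genes mark the HIF-1 alpha protein for capture by the VHL ubiquitin ligase and breakdown. When oxygen is low the mark is not placed, and HIF-1 alpha pairs with ARNT and binds a short DNA core in the hypoxia response elements of its targets. In T cells the Hif1a gene is also raised by antigen receptor and cytokine signals in normal oxygen, and HIF-1 is known for shifting T cell metabolism towards glycolysis. Control of the protein is not visible in RNA, so the values below are transcript levels alone.

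The promoters below are shown because they carry this core in the member that moved most after injury (Hif1a), in a sensor gene (Egln3), in the other target that passed the test after injury (P4ha1) and in the member with the most cores (Bnip3). They are RefSeq sequences of build GRCm38.p6, 5′ to 3′ on the gene's strand, covering the 250 bases before the annotated start, or positions -250 to -21 for Bnip3. Capitals mark ACGTG or GCGTG on either strand, so that CACGT and CACGC are the same cores read from the opposite strand, and CACGTG holds ACGTG on both strands and counts as 2 overlapping matches. The stretches are chr12:73907617-73907866 on the plus strand for Hif1a, chr12:54203875-54204124 on the minus strand for Egln3, chr10:59323046-59323295 on the plus strand for P4ha1 and chr7:138909527-138909756 on the minus strand for Bnip3.
Hif1a: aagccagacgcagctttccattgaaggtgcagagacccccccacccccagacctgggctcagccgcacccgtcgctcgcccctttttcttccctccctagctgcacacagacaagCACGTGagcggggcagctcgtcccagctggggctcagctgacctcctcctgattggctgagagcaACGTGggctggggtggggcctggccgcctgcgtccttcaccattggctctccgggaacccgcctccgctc
Egln3: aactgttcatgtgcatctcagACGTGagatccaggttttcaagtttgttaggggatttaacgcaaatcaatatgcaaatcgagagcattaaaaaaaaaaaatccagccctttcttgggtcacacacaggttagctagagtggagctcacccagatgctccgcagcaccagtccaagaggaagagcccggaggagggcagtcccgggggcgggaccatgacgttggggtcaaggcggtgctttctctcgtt
P4ha1: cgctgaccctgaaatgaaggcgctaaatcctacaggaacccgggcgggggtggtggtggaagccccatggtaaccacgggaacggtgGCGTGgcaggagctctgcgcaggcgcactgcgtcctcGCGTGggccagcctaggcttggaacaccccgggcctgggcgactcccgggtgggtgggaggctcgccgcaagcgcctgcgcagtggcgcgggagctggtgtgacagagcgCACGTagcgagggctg
Bnip3: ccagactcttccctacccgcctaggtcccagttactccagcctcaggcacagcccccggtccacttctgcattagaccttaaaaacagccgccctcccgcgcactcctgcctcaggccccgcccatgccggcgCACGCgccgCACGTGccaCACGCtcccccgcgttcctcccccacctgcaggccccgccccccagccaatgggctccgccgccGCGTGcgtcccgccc

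Counted from the start, with -1 as the base before it, the Hif1a stretch held ACGTG at -135 and -134 (the overlapping pair) and at -70. Egln3 held a single core at -229. P4ha1 held GCGTG at -163 and -126 and ACGTG at -16, and Bnip3 held 5 cores between -117 and -35. Over whole windows of 300 bases (250 before and 50 after the start), 9 of the 10 genes matched the RefSeq table with 11 windows, and 9 of the 11 windows held either core. Of all windows of tested genes, 58.6% held either core (7703 of 13142), as did 43.8% of all windows in the table (14380 of 32851). The other windows held 4 cores in Ankrd37, 2 in Egln1, 1 in Mif, and 2 in 1 of the windows of each of Vegfa and Pdk1, whose other window held 0. For Vegfa the window at the outer start of the gene held 0, and the window with 2 (chr17:46025114-46025413) lay inside the gene. The windows of Hif1a (chr12:73907617-73907916) and Ankrd37 (chr8:45999801-46000100) also lay inside the gene and not at its outer start. The full genes span chr12:73901375-73947530 on the plus strand and chr8:45996902-46005707 on the minus strand. For Pdk1 the window at the outer start held the 2 cores. A match is a description of letters and not a measured binding site.

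Among the tested protein-coding genes, Hif1a stood at percentile 97.1 of mean level and Pdk1 at percentile 89.4. Mif, Egln1 and P4ha1 stood between percentiles 63.5 and 68.9. Ndrg1, Ankrd37, Bnip3 and Egln3 stood between 23.1 and 38.5, and Vegfa was lowest at 12.3. FPKM is scaled per transcript length, so these levels can be set beside each other. The deposited table gives no counts, the depth behind each value is unknown, and low genes such as Vegfa, Egln3 and Bnip3 are measured less precisely.

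The sorted cells carried the T cell genes that the labels imply: all 12 T cell identity genes, Cd4 and the CD3 chains among them, had a mean of at least 1 FPKM, with summed levels of 1579 to 2017 FPKM in KO IRI, 2072 to 3089 in KO control, 814 to 967 in WT IRI and 1648 to 1847 in WT control. Keap1 read 4.59 to 6.28 FPKM in KO IRI, 5.75 to 7.77 in KO control, 6.03 to 8.8 in WT IRI and 8.5 to 9.87 in WT control, a KO to WT difference of -0.34 ± 0.13, adjusted p = 0.0945 as deposited and -0.61 ± 0.11, adjusted p = 0.0484 after rescaling by median ratios. A gene-level value does not show whether the deleted exons are missing. Nqo1, a standard NRF2 target, read 3.38 to 7.75 FPKM in the 6 KO libraries and 0 to 0.543 in the 6 WT libraries. Summed levels of injured tubule markers were 23.5 to 408 FPKM in IRI and 2.96 to 17.9 in control libraries. B cell marker sums were 61.41 to 159.6 FPKM in KO IRI, 318.1 to 1550 in KO control, 40.0 to 63.7 in WT IRI and 124.6 to 228.8 in WT control. Macrophage and monocyte sums were 115.8 to 267.0, 230.4 to 433.4, 125.8 to 165.5 and 145.5 to 230.0 FPKM in the same order. The part of these cells in the values of the 10 genes was not tested. The median tested gene was higher in KO than in WT by 0.29 on the log2(FPKM + 1) scale as deposited and by 0.04 after rescaling, which is why the genotype calls are given both ways.

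**Figure D1:**
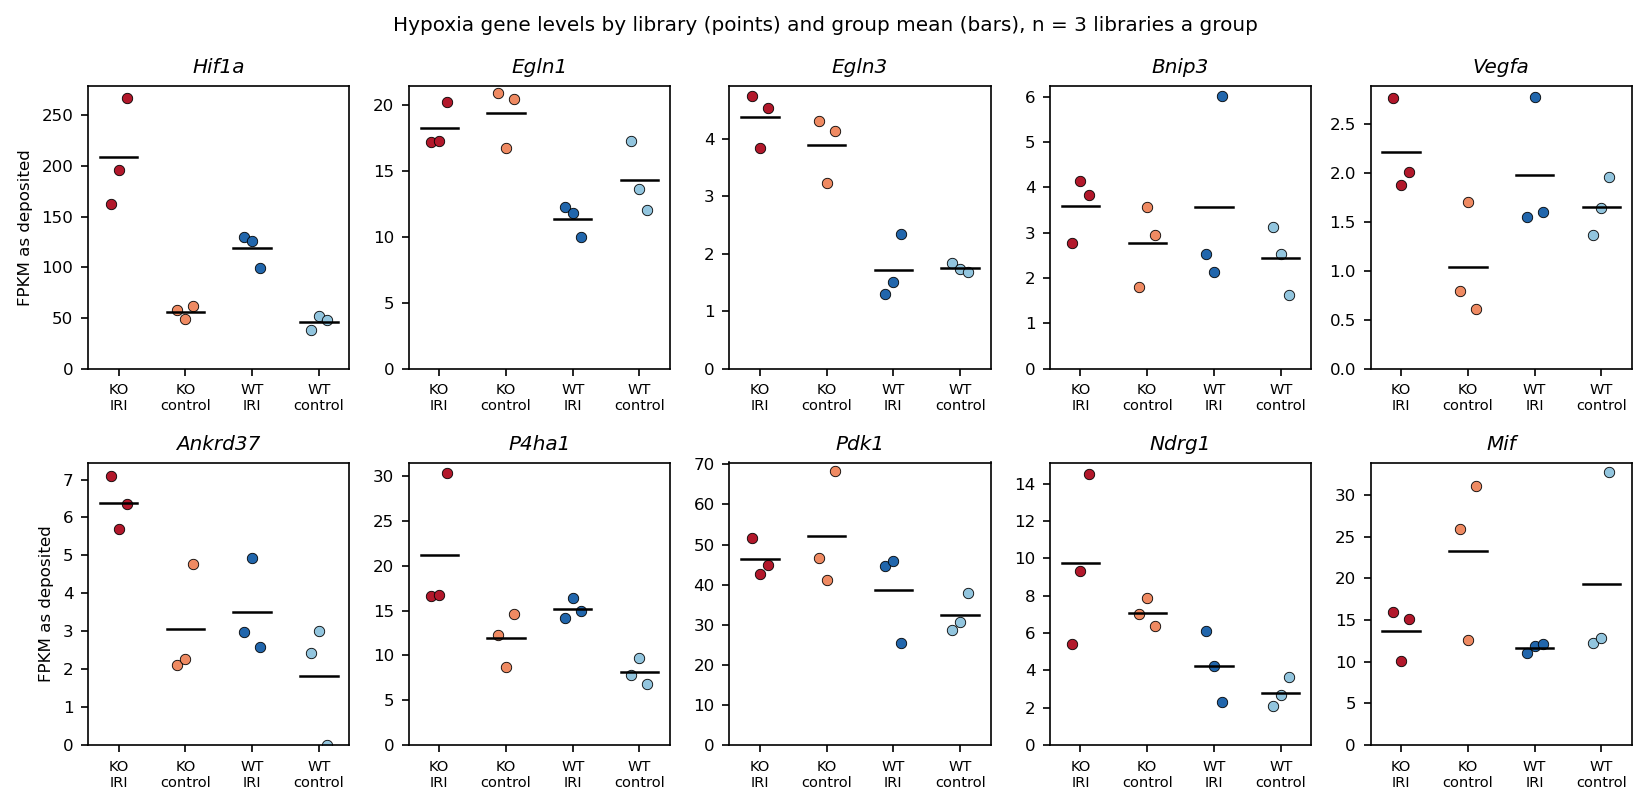
Level of each of the 10 hypoxia genes in every library, in FPKM as deposited (vertical axes start at 0 and differ between panels), with points for the 3 libraries of each group and a bar for the group mean. Hif1a in all 6 IRI libraries lies above all 6 control libraries, and Egln3 in all 6 KO libraries lies above all 6 WT libraries.

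Hif1a encodes the oxygen-regulated subunit of HIF-1. It read 163, 196 and 268 FPKM in KO IRI, against 58.2, 48.9 and 61.8 FPKM in KO control. In WT IRI it read 130.0, 126 and 99.3 FPKM, against 38.5, 51.5 and 47.8 FPKM in WT control. Every IRI library was above every control library, in both genotypes. Group means were 209 ± 53.6 FPKM in KO IRI, 56.3 ± 6.65 in KO control, 119 ± 16.8 in WT IRI and 45.9 ± 6.71 in WT control (SD, n = 3 each), so the mean in KO IRI was 3.71 times that in KO control and the mean in WT IRI was 2.58 times that in WT control. In descending order the groups stood as KO IRI, WT IRI, KO control, WT control, and only the last neighbours overlapped.

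On the log2(FPKM + 1) scale Hif1a rose by 1.85 ± 0.22 in KO IRI over KO control (± SE throughout, limma, adjusted p = 0.00566) and by 1.35 ± 0.22 in WT IRI over WT control (adjusted p = 0.00913). It was the 1 member of 10 called in each of these comparisons, in which 0.866% of all tested genes passed in KO (0.327% higher in IRI) and 3.78% in WT (1.19% higher). Averaged over genotype the rise was 1.60 ± 0.15 (adjusted p = 0.000314). After rescaling, Hif1a read 140.1, 188 and 244 in KO IRI, 43.5, 48.7 and 50.5 in KO control, 132, 132 and 132 in WT IRI and 42.1, 53.5 and 51.9 in WT control. The rescaled rise was 1.95 ± 0.19, adjusted p = 0.0016, in KO, where 2.06% of all tested genes then passed, and 1.41 ± 0.19, adjusted p = 0.00211, in WT, where 7.94% did. With all libraries brought to a common sum of FPKM the differences were 1.42 in KO (adjusted p = 0.0889) and 1.36 in WT (adjusted p = 0.0768). Without KO control 1, WT IRI 3 and WT control 3 they were 1.88 (adjusted p = 0.0549) and 1.504 (adjusted p = 0.0597), none of which passed. The rise averaged over genotype passed under every alternative run.

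Markers of injured tubule moved with the same groups. Their summed level was 23.5, 352 and 408 FPKM in KO IRI, against 2.96, 12.0 and 5.75 in KO control, and 351, 340.4 and 50.3 in WT IRI, against 9.849, 6.998 and 17.87 in WT control. Of 10 markers 7 were tested, and Lcn2 and Spp1 passed the test averaged over genotype, both higher in IRI. None was at 0 in every library, while Lcn2 and Krt20 were each listed at 0 in 2 libraries. KO IRI 1 and WT IRI 3 had the lowest sums of the IRI libraries, 23.5 and 50.3 FPKM, both above the highest control sum of 17.87. Hif1a as deposited read 163 and 99.3 FPKM in them, the lowest value of each IRI group and above the highest control value of 61.8. After rescaling, Hif1a stood 0.5953, 0.591 and 0.591 log2 units above its mean in WT IRI 1, 2 and 3, so WT IRI 3 was no longer apart. In KO IRI 1, 2 and 3 it stood 0.6806, 1.0992 and 1.479 above, with KO IRI 1 still lowest. Of the other lists, 4 of 8 tested neutrophil markers rose and 1 fell, 1 of 12 macrophage markers rose and 4 fell, 6 of 8 B cell markers fell, 5 of 8 CD8 T and NK cell markers fell and 7 of 12 T cell identity genes fell in IRI averaged over genotype. In that comparison 9.04% of all tested genes passed (3.01% higher in IRI). Neutrophil sums were 6.01 to 40.0 FPKM in KO IRI, 12.9 to 16.8 in KO control, 22.8 to 47.8 in WT IRI and 19.9 to 25.9 in WT control. Proximal tubule sums were 9.471, 24.62 and 276.6 FPKM in KO IRI and 9.591, 158.6 and 23.24 in KO control. They were 49.09, 7.017 and 5.584 FPKM in WT IRI and 9.163, 11.05 and 66.81 in WT control. The part of these cells in the Hif1a values was not tested. Gm15283, an antisense gene that overlaps Hif1a, averaged 3.67 FPKM over the 12 libraries.

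The Hif1a rise was larger in KO than in WT by 0.50 ± 0.31 on the log2 scale, a difference that did not pass (adjusted p = 0.999). After injury, KO IRI and WT IRI did not overlap, but the difference of 0.79 ± 0.22 did not pass as deposited (adjusted p = 0.111), nor did that of 0.49 ± 0.19 after rescaling (adjusted p = 0.246). In controls the KO to WT difference was 0.29 ± 0.22 as deposited (adjusted p = 0.414) and -0.04 ± 0.19 after rescaling (adjusted p = 0.962), so its sign turned with the scaling.

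The partners and controllers of HIF-1 alpha showed smaller differences. Epas1, which encodes the sister subunit HIF-2 alpha, read 6.24, 7.67 and 3.6 FPKM in KO IRI, 3.32, 2.55 and 4.19 in KO control, 7.87, 6.12 and 3.65 in WT IRI and 4.3, 3.69 and 3.79 in WT control. Its difference in IRI over control averaged over genotype was 0.53 ± 0.20, adjusted p = 0.146. Arnt, the shared partner subunit, differed by 0.25 ± 0.14 (adjusted p = 0.304), with 27.9 to 33.2 FPKM in KO IRI, 25.2 to 38.9 in KO control, 26.5 to 28.7 in WT IRI and 14.7 to 22.5 in WT control. The WT groups did not overlap for Arnt, and the KO groups did. Within WT the Arnt difference was 0.55 ± 0.20, adjusted p = 0.162, as deposited and passed after rescaling at 0.61 ± 0.16, adjusted p = 0.0433. Vhl, the substrate receptor of the ubiquitin ligase, differed by 0.61 ± 0.20, adjusted p = 0.0872, and Hif1an, the asparagine hydroxylase that blocks HIF coactivator binding, by 0.23 ± 0.18, adjusted p = 0.485.

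Egln2, the third prolyl hydroxylase gene, was the sensor gene that rose after injury. It read 29.5, 26.8 and 30.6 FPKM in KO IRI, 23.5, 19.8 and 23.9 in KO control, 34.8, 31.3 and 24.4 in WT IRI and 12.7, 17.6 and 23.2 in WT control. All 6 IRI libraries were above all 6 control libraries. The averaged difference was 0.55 ± 0.15, adjusted p = 0.0485, and it did not pass within KO (0.36 ± 0.22, adjusted p = 0.499) or within WT (0.75 ± 0.22, adjusted p = 0.0909) as deposited. After rescaling it passed within WT (0.81 ± 0.18, adjusted p = 0.0217) and not within KO (0.45 ± 0.18, adjusted p = 0.231).

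Egln1 encodes PHD2, the main oxygen sensor among the prolyl hydroxylases. It read 17.1, 17.2 and 20.2 FPKM in KO IRI, 20.9, 16.7 and 20.5 in KO control, 12.2, 11.8 and 9.99 in WT IRI and 17.2, 13.6 and 12 in WT control. After injury all KO libraries were above all WT libraries, and in controls KO control 2 was below WT control 1. Injury itself moved Egln1 by -0.08 ± 0.17 in KO (adjusted p = 0.874) and -0.30 ± 0.17 in WT (adjusted p = 0.434), neither of which passed. Averaged over condition Egln1 was 0.53 ± 0.12 higher in KO (adjusted p = 0.0324) against a median gene at 0.29, and 0.23 ± 0.10 after rescaling (adjusted p = 0.231).

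Egln3 encodes PHD3, a prolyl hydroxylase whose gene is itself a classic HIF target. It read 4.75, 3.84 and 4.54 FPKM in KO IRI, against 1.29, 1.51 and 2.35 in WT IRI. In controls it read 4.32, 3.23 and 4.13 FPKM in KO control, against 1.84, 1.73 and 1.68 in WT control. All 6 KO libraries were above all 6 WT libraries, as deposited and after rescaling. The rescaled separation was narrow, with WT IRI 3 at 0.17 and KO control 2 at 0.21 log2 units above the gene's mean. The IRI groups overlapped their controls as deposited, while after rescaling all KO IRI libraries were above all KO control libraries, a difference of 0.22 ± 0.21, adjusted p = 0.656, that did not pass. Egln3 was the only member of the 10 in which KO and WT did not overlap, which held for 4.59% of all tested genes as deposited and 2.87% after rescaling. Group means were 4.38 ± 0.473 FPKM in KO IRI, 3.89 ± 0.577 in KO control, 1.72 ± 0.555 in WT IRI and 1.75 ± 0.0822 in WT control (SD, n = 3 each). Within each genotype the means differed by less than the larger SD of its groups.

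Averaged over condition, Egln3 was 0.91 ± 0.14 higher in KO (limma, adjusted p = 0.0189). The rescaled difference was 0.67 ± 0.15, with an adjusted p of 0.0588 that missed the threshold of 0.05. As deposited the KO to WT difference was 0.82 ± 0.20, adjusted p = 0.192, in controls and 1.00 ± 0.20, adjusted p = 0.0829, after injury, and after rescaling it was 0.57 ± 0.21, adjusted p = 0.335, in controls and 0.77 ± 0.21, adjusted p = 0.176, after injury. Without KO control 2 the differences as deposited passed, at adjusted p = 0.0317 and 0.041, and the averaged call was lost without KO control 1 (0.0502), KO control 3 (0.0567), WT control 1 (0.051) or WT control 2 (0.052), with differences of 0.88 to 0.92. It was also lost without KO control 1, WT IRI 3 and WT control 3 together (0.95, adjusted p = 0.0536) and with a common sum (0.57, adjusted p = 0.332). T cell identity genes moved with genotype too. Averaged over condition, 11 of 12 were higher in KO as deposited, beside 11.9% of all tested genes. After rescaling 3 of 12 were higher, beside 0.55% of all tested genes called in either direction. The part of T cell identity in the Egln3 values was not tested.

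Of the hypoxia-responsive members, P4ha1 was the other gene that rose after injury. It encodes the catalytic subunit of the prolyl hydroxylase that prepares collagen for folding. It read 16.6, 16.8 and 30.3 FPKM in KO IRI, against 12.2, 8.76 and 14.7 in KO control, and 14.1, 16.4 and 14.9 in WT IRI, against 7.83, 9.71 and 6.79 in WT control. Within each genotype all IRI libraries were above all controls, and KO IRI 3 stood well above the other KO IRI libraries. KO IRI 3 also had the highest summed proximal tubule markers of the 12 libraries, at 276.6 FPKM. KO control 2 came next at 158.6 FPKM and had the lowest P4ha1 value of KO control. The part of tubule RNA in the P4ha1 values was not tested.

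The P4ha1 difference was 0.76 ± 0.26, adjusted p = 0.21, in KO and 0.83 ± 0.26, adjusted p = 0.108, in WT, and 0.80 ± 0.18, adjusted p = 0.0217, averaged over genotype. Hif1a and P4ha1 were thus the 2 members of 10 called in the averaged comparison, in which 9.04% of all tested genes were called (3.01% higher in IRI). After rescaling P4ha1 also passed within WT (0.90 ± 0.24, adjusted p = 0.0466). The averaged call was lost with a common sum (0.60, adjusted p = 0.171). It was also lost, with differences of 0.74 to 0.80, with no filter on low values (adjusted p = 0.0512), without WT IRI 2 (0.0587), without WT control 1 (0.0529), without WT control 3 (0.0536), and without KO control 1, WT IRI 3 and WT control 3 together (0.12).

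**Figure D2:**
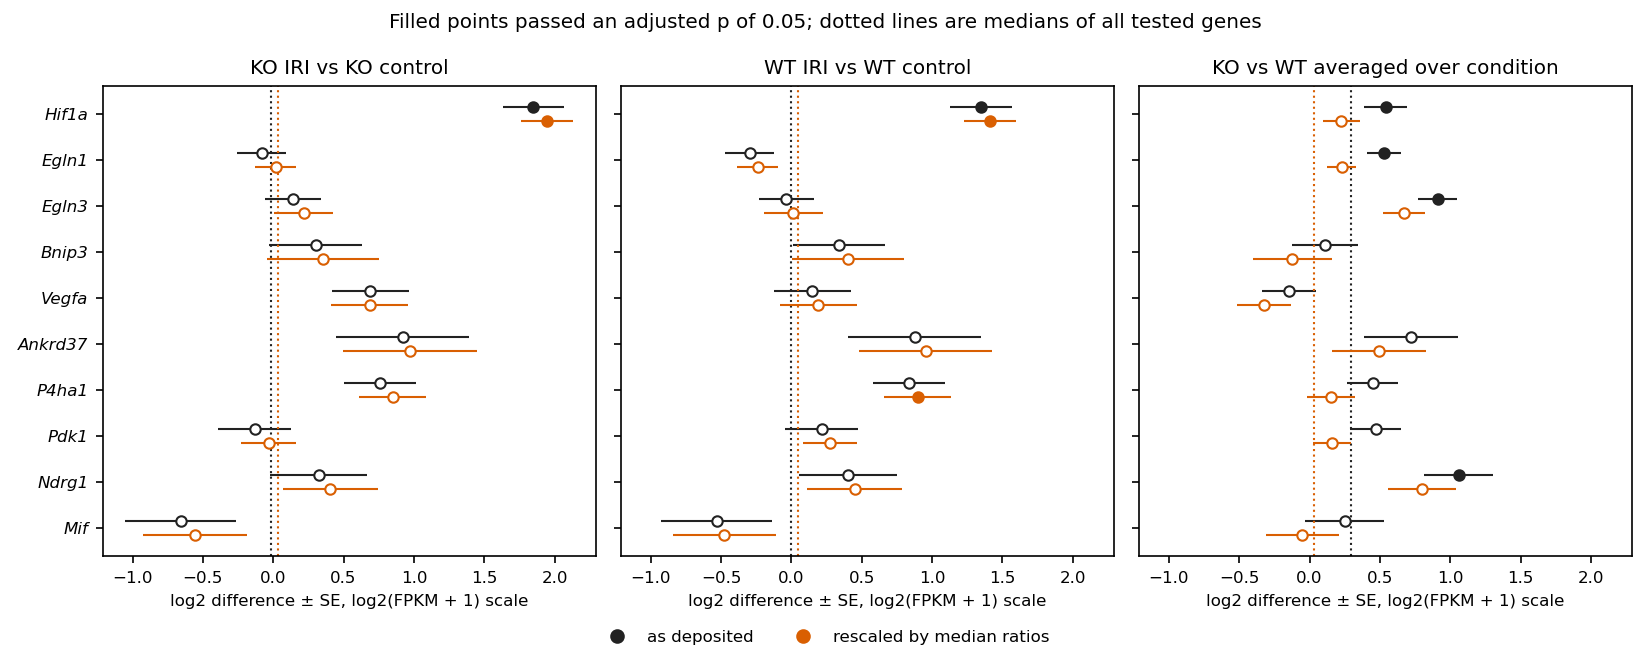
Difference of each hypoxia gene on the log2(FPKM + 1) scale with its SE, in IRI over control within KO, in IRI over control within WT, and in KO over WT averaged over condition, from values as deposited and after rescaling. Hif1a passed in both injury comparisons under both scalings, P4ha1 in WT after rescaling, and the 4 genotype calls as deposited were not made after rescaling, when the median of all tested genes moved to 0.04.

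Ankrd37 encodes an ankyrin repeat protein and is a known HIF-1 target. It read 7.09, 5.7 and 6.35 FPKM in KO IRI, against 2.11, 2.27 and 4.77 in KO control. In WT IRI it read 2.98, 4.93 and 2.58 FPKM, against 2.43, 3.01 and 0 in WT control. The KO IRI libraries were the highest of the 12, above all KO control and all WT IRI libraries, while the WT groups overlapped. WT control 3 is listed at 0, and a 0 in this table need not mean absence: the abundant RNA Malat1 is also listed at 0 in 1 library.

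The Ankrd37 difference was 0.92 ± 0.47, adjusted p = 0.418, in KO and 0.88 ± 0.47, adjusted p = 0.38, in WT, and neither passed. Without WT control 3 the WT difference was 0.25 (adjusted p = 0.804). Ankrd37 overlaps Ufsp2, which lies on the opposite strand and averaged 9.7 FPKM. The strand setting of the counting is not given in the sources used here.

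Vegfa encodes the main growth factor for blood vessels and was the lowest of the 10 genes. It read 2.76, 1.88 and 2 FPKM in KO IRI, against 0.787, 1.7 and 0.606 in KO control, and 1.55, 2.78 and 1.6 in WT IRI, against 1.36, 1.64 and 1.96 in WT control. KO IRI did not overlap KO control, and the WT groups overlapped. The differences of 0.69 ± 0.27, adjusted p = 0.291, in KO and 0.15 ± 0.27, adjusted p = 0.846, in WT did not pass, nor did the difference between them (0.54 ± 0.39, adjusted p = 0.999).

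Bnip3, which encodes a mitochondrial receptor for mitophagy, read 2.77, 4.15 and 3.84 FPKM in KO IRI, against 1.8, 3.56 and 2.94 in KO control, and 2.53, 2.13 and 6.02 in WT IRI, against 3.13, 2.54 and 1.63 in WT control. WT IRI 3 was the highest of the 12 libraries and every pair of groups compared overlapped. None of the 7 comparisons passed, with differences of 0.30 ± 0.33, adjusted p = 0.715, in KO and 0.34 ± 0.33, adjusted p = 0.666, in WT. Each of these differences was about the size of its SE.

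Pdk1 encodes the kinase that blocks pyruvate dehydrogenase and so keeps pyruvate out of the citric acid cycle. It read 51.7, 42.7 and 45 FPKM in KO IRI, against 46.6, 41.2 and 68.3 in KO control, and 44.8, 46 and 25.5 in WT IRI, against 28.8, 30.6 and 37.8 in WT control. The injury groups overlapped their controls in both genotypes. As deposited all KO control libraries were above all WT control libraries, with a difference of 0.64 ± 0.26, adjusted p = 0.213. After rescaling these groups overlapped, with a difference of 0.31 ± 0.19, adjusted p = 0.598.

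Ndrg1, a stress-responsive gene raised by hypoxia and by iron loss in many cell types, read 5.39, 9.32 and 14.5 FPKM in KO IRI, against 6.12, 4.24 and 2.29 in WT IRI. In controls it read 7, 7.86 and 6.38 FPKM in KO control, against 2.09, 2.7 and 3.64 in WT control. The control groups did not overlap, and KO IRI 1 was below WT IRI 1. Within genotype the injury difference was 0.32 ± 0.35, adjusted p = 0.711, in KO and 0.40 ± 0.35, adjusted p = 0.616, in WT. Averaged over condition Ndrg1 had the largest genotype difference of the 10 genes, at 1.06 ± 0.24, adjusted p = 0.0321, as deposited and 0.80 ± 0.24, adjusted p = 0.102, after rescaling. Gm17035, an antisense gene that overlaps Ndrg1, averaged 3.92 FPKM.

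Mif encodes macrophage migration inhibitory factor, a cytokine whose gene is also induced by HIF-1. It read 15.9, 10 and 15.1 FPKM in KO IRI, against 25.9, 12.7 and 31.1 in KO control, and 11.1, 11.9 and 12.1 in WT IRI, against 12.2, 12.8 and 32.8 in WT control. It was the 1 member that was lower in IRI with no overlap in WT as deposited, where the nearest values were 12.1 FPKM in WT IRI and 12.2 in WT control, and after rescaling the WT groups overlapped. Its differences of -0.66 ± 0.39, adjusted p = 0.492, in KO and -0.53 ± 0.39, adjusted p = 0.546, in WT did not pass. WT control 3 stood at 32.8 FPKM while the other 2 WT control libraries stood at 12.2 and 12.8. Reads of 36 bp can be shared with processed pseudogenes such as Mif-ps3, which averaged 1.65 FPKM, so the Mif level is uncertain.

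Injury did not move the 10 genes as a block. In KO IRI over KO control 4 of 10 members did not overlap (Hif1a, Vegfa, Ankrd37 and P4ha1, all higher in IRI), beside 17.4% of all tested genes (8.21% higher in IRI). After rescaling Egln3 joined them, making 5 of 10 beside 22.6% (12.0% higher in IRI). In WT IRI over WT control 3 of 10 did not overlap (Hif1a and P4ha1 higher, Mif lower), beside 23.7% of all tested genes, and after rescaling 2 of 10 (Hif1a and P4ha1), beside 26.5%. The median member differed by 0.31 in KO and by 0.28 in WT, against -0.02 and 0.00029 for the median of all tested genes. Hif1a was the only member in which all IRI libraries stood apart from all control libraries as deposited, which held for 3.65% of tested genes, and P4ha1 joined it after rescaling, when the share was 7.11%.

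Between genotypes, 0 of 10 members passed in KO control over WT control, where 0.0259% of all tested genes passed and 4022 had an unadjusted p under 0.05, and 0 of 10 in KO IRI over WT IRI, where 0.057% passed and 4324 had an unadjusted p under 0.05. In controls Egln3, Pdk1 and Ndrg1 did not overlap, all higher in KO, beside 23.7% of all tested genes (20.1% higher in KO), and after rescaling Egln3 and Ndrg1 did not, beside 15.4% (7.91% higher in KO). After injury Hif1a, Egln1, Egln3, Ankrd37 and P4ha1 did not overlap, all higher in KO, beside 32.4% (24.9% higher in KO), and after rescaling P4ha1 overlapped and the other 4 did not, beside 24.2% (11.8% higher in KO). Averaged over condition 4 of 10 members passed, all higher in KO (Egln3, Ndrg1, Egln1 and Hif1a), where 13.7% of all tested genes passed (11.9% higher in KO).

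After rescaling 0 of 10 members passed averaged over condition, where 0.55% of all tested genes did. The Hif1a difference averaged over condition was 0.54 ± 0.15, adjusted p = 0.0454, as deposited and 0.23 ± 0.13, adjusted p = 0.355, after rescaling. The median member was 0.50 higher in KO as deposited beside 0.29 for all tested genes, and 0.19 beside 0.04 after rescaling. Bnip3 and Mif turned from 0.11 ± 0.23 and 0.25 ± 0.28 as deposited to -0.12 ± 0.28 and -0.05 ± 0.26 after rescaling. With 1 library left out, Hif1a still passed without KO control 2, Ndrg1 without KO control 2 or WT IRI 1, and Egln1 without KO control 2, KO IRI 2, WT IRI 1 or WT IRI 2, while each was lost without any of the other libraries, with adjusted p of up to 0.106 for Hif1a, 0.0789 for Ndrg1 and 0.0843 for Egln1, each without KO control 3. In the fits with 1 library left out that lost the call, the differences were 0.44 to 0.62 for Hif1a, 0.90 to 1.22 for Ndrg1 and 0.47 to 0.60 for Egln1. P4ha1 passed without KO control 2 (0.54, adjusted p = 0.0444), against 0.45 ± 0.18, adjusted p = 0.104, with all libraries. In the test of the genotype by IRI interaction 0 of 10 members passed, where 0.00518% of all tested genes passed and 646 had an unadjusted p under 0.05.

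**Figure D3:**
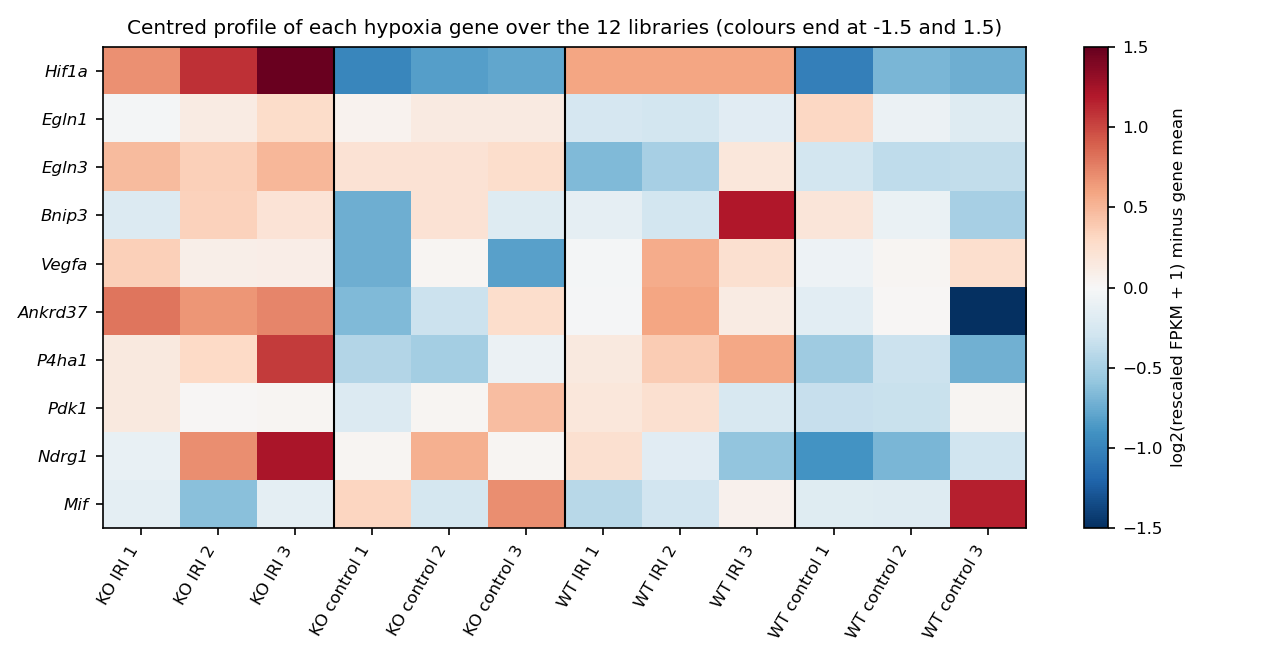
Each row is 1 hypoxia gene and each column 1 library, and colour is log2(rescaled FPKM + 1) minus the gene's mean over the 12 libraries, ending at -1.5 and 1.5. The Hif1a row separates IRI from control libraries. The Egln3 row separates KO from WT libraries narrowly, with WT IRI 3 at 0.17 and KO control 2 at 0.21. Single libraries stand out for Bnip3 (WT IRI 3), Ankrd37 (WT control 3) and Mif (WT control 3).

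Profiles over the 12 libraries were compared by the root mean square difference between centred log2(rescaled FPKM + 1) values, in log2 units, which is small for any pair of genes that vary little. The member closest to Hif1a was P4ha1 at 0.46. Among all tested protein-coding genes, those nearest to Hif1a were Ikzf4 at 0.22, Sbno2 at 0.23 and Crybg1 at 0.25, where Hif1a itself had an SD of 0.92 over the libraries. Those nearest to Egln3 (SD 0.41) were Macrod1, Hacd2 and Lrig1 at 0.18 each, and those nearest to P4ha1 (SD 0.53) were Ypel2 at 0.13, Jmjd1c at 0.16 and Satb1 at 0.17. Ndrg1 (SD 0.61) had Gclc, a glutathione synthesis gene, nearest at 0.30. The nearest genes were Rabif, Snap29 and Mrps34 for Egln1 (SD 0.20), Gnb5, Fam45a and Manea for Bnip3 (SD 0.49), Cul7, Hykk and Syn3 for Vegfa (SD 0.40), Pole2, Cbr4 and Inafm1 for Ankrd37 (SD 0.78), and Ifit3b, Rbmxl1 and A230050P20Rik for Mif (SD 0.50), at distances of 0.0955 to 0.315. The 12 points share their libraries and scaling, and the distances are descriptions.

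Across the wider pathway, genes of the hypoxia response moved in both directions after injury. Of 22 tested genes for HIF subunits and their regulators, 2 rose in IRI over control averaged over genotype (Hif1a and Egln2), 1 fell (Os9, which encodes a lectin of the endoplasmic reticulum, -0.73 ± 0.19, adjusted p = 0.0423) and 19 did not pass, with a median of 0.06. Of 37 hypoxia targets outside glycolysis 30 were tested, and 3 rose, 2 fell and 25 did not pass, with a median of 0.23. Tfrc, among the 30, was added after its values were seen, and the counts of this list include it. Of all tested genes 9.04% passed (3.01% higher in IRI). After rescaling 3 of the 22 rose and 1 fell, and 6 of the 30 rose and 2 fell, beside 13.7% of all tested genes (6.35% higher in IRI). The median of all tested genes was, as deposited, -0.0035.

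Nfil3, a basic leucine zipper transcription factor that controls cytokine genes in T cells, showed the strongest rise of these targets. It read 18.8, 17.1 and 15.8 FPKM in KO IRI, against 3.99, 4.18 and 3.76 in KO control, and 16.4, 17.1 and 10.4 in WT IRI, against 3.89, 2.14 and 1.92 in WT control. All IRI libraries were above all control libraries, and the rise was 1.87 ± 0.23, adjusted p = 0.00702, in KO and 2.11 ± 0.23, adjusted p = 0.00197, in WT. Ero1l, an oxidase of the endoplasmic reticulum that drives disulfide formation, fell in IRI averaged over genotype (-0.94 ± 0.14, adjusted p = 0.00289). Fam162a, which encodes a mitochondrial protein, also fell (-1.11 ± 0.19, adjusted p = 0.00541), with 4.97, 3.09 and 5.22 FPKM in KO IRI, against 7.44, 8.64 and 9.37 in KO control, and 1.58, 0.753 and 2.56 in WT IRI, against 4.72, 5.79 and 6.69 in WT control. The Fam162a fall passed within WT (-1.41 ± 0.27, adjusted p = 0.0194), and the KO difference did not pass (-0.82 ± 0.27, adjusted p = 0.193). Ero1l and Fam162a are known HIF-1 targets in other cells.

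Of 20 glycolytic hypoxia targets 19 were tested, and 1 rose (Slc16a3, a lactate exporter gene), 4 fell and 14 did not pass in IRI averaged over genotype, with a median of -0.175. Slc16a3 and Pgk1 were added after their values were seen, and the counts of this list include them. The falls with the smallest adjusted p were in Aldoa, an aldolase gene (-0.99 ± 0.18, adjusted p = 0.00675), Hk1, a hexokinase gene (-0.73 ± 0.13, adjusted p = 0.00804), and Slc2a3, a glucose transporter gene (-0.93 ± 0.20, adjusted p = 0.0155). Within WT these 3 passed as well, at -0.996 ± 0.19, adjusted p = 0.0193, for Hk1, -1.19 ± 0.25, adjusted p = 0.0277, for Aldoa and -1.15 ± 0.28, adjusted p = 0.0472, for Slc2a3. Within KO 0 of the 19 passed in limma, where 0.866% of all tested genes passed and 2696 had an unadjusted p under 0.05, and Hk1 differed by -0.47 ± 0.19, adjusted p = 0.304. The difference between genotypes in these falls did not pass (0 of 19 in the interaction). After rescaling 3 glycolytic targets rose and 4 fell averaged over genotype, where 13.7% of all tested genes passed.

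**Figure D4:**
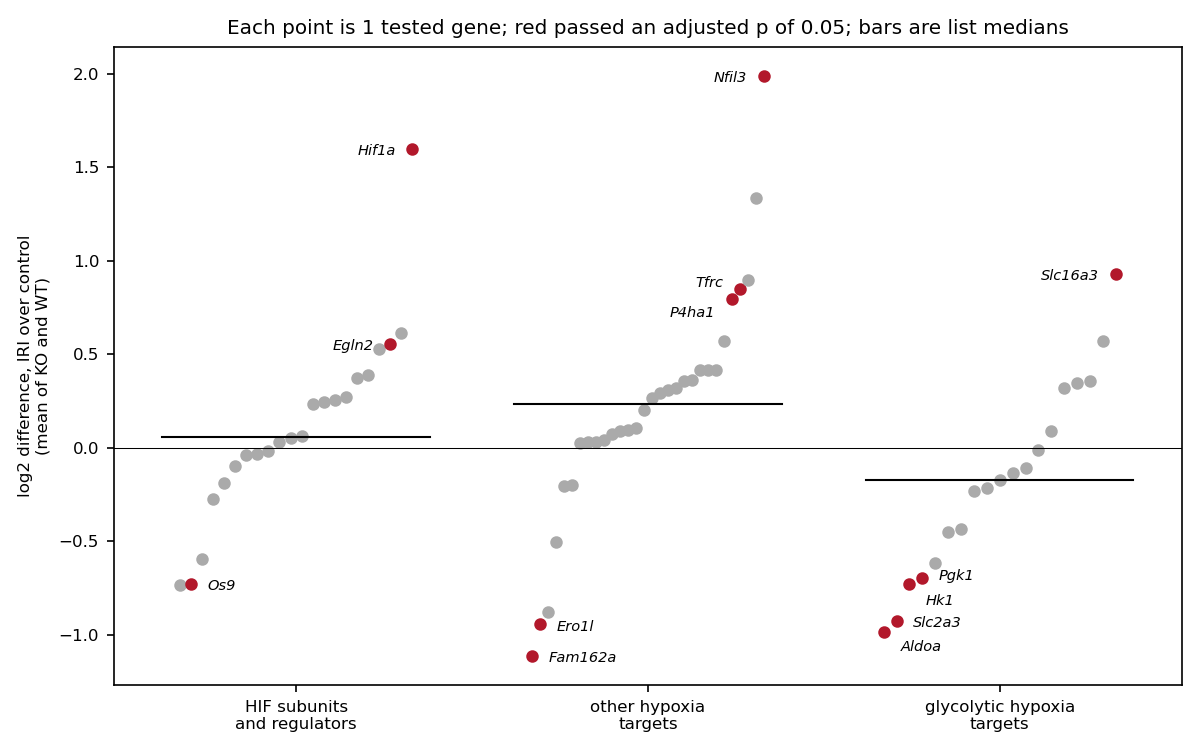
Difference in IRI over control averaged over genotype, on the log2(FPKM + 1) scale as deposited, for each tested gene of 3 lists: HIF subunits and regulators (22 genes), hypoxia targets outside glycolysis (30) and glycolytic hypoxia targets (19). Points are single genes in rank order, red and named where the adjusted p was under 0.05, and bars are list medians of 0.06, 0.23 and -0.175. Slc16a3, Tfrc and Pgk1 were added after their values were seen.

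Averaged over condition, 7 of 22 regulator genes were higher in KO than in WT as deposited, beside 11.9% of all tested genes, among them Rack1 (0.66 ± 0.16, adjusted p = 0.0347), Cited2 (0.60 ± 0.16, adjusted p = 0.0401) and Crebbp (0.53 ± 0.15, adjusted p = 0.0464). Rack1 and Cited2 encode proteins that limit HIF-1 and Crebbp a coactivator. Of 30 targets outside glycolysis 3 were higher, a share below that of all tested genes, including Fam162a (0.79 ± 0.19, adjusted p = 0.0341) and Bnip3l (0.69 ± 0.17, adjusted p = 0.0346), and of 19 glycolytic targets 6 were higher, led by Gpi1 (0.88 ± 0.14, adjusted p = 0.0213), Aldoa (1.08 ± 0.18, adjusted p = 0.0213) and Pgk1 (0.88 ± 0.15, adjusted p = 0.023). Pgk1 was added after its values were seen, and the count of 6 includes it. After rescaling 0 of 22, 0 of 30 and 1 of 19 passed, the 1 being Gpi1 (0.57 ± 0.09, adjusted p = 0.0297), a glycolytic isomerase gene. The list medians were 0.43, 0.375 and 0.39 as deposited and 0.13, 0.09 and 0.08 after rescaling, beside 0.29 and 0.04 for all tested genes.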

How the data were processed

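CD4 T cells were sorted from Percoll-enriched kidney cells, per the labels' protocols, and 1 ng of RNA entered a stranded low-input kit read as pairs of 36 bp. The authors deposited 1 table of FPKM values for 52632 genes and 12 libraries, per the file headers. The submitters' processing notes list Cufflinks 2.2.1, TopHat2 2.1.0, bcl2fastq 2.17.1.14, Partek 7.0 and the build GRCm38, with no role for any of them. The annotation release and strand setting are not given in the sources used here. Low values form no steps of single reads, so reads could not be recovered and the depth is unknown.

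Of the IDs, 52399 had a symbol and 52485 matched GENCODE mouse release 21. Those averaging 1 FPKM or more (19288 genes, 12065 protein-coding) were tested with limma 3.58.1 in R 4.3.3 (eBayes with trend) on log2(FPKM + 1), which understates changes of low genes, with 1 mean per group, 8 residual degrees of freedom and Benjamini-Hochberg adjustment within each of 7 comparisons (threshold 0.05). The fit was also run on simulated data drawn independently for each gene, with no differences of scale between libraries. That run does not bear on calls that change with the scaling. For rescaling, each library's ratios to the genes' geometric means were taken over the 16018 genes above 0 everywhere, and their median was the divisor.

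Alternatives were a common FPKM sum, pseudocounts 0.1 and 5, no filter, a replicate block, leaving out 3 libraries that an earlier analysis set apart, and leaving out each library. All 10 members were described. Of each pathway list, up to 3 called genes with the smallest adjusted p were named beyond them, and Epas1, Arnt, Vhl, Egln2 and Hif1an always. Slc16a3, Tfrc and Pgk1, shown among called genes, were added after their values were seen, and the list counts include them. The members and lists were chosen with earlier results of these data known. Promoters are from RefSeq (GRCm38.p6). Protein sequences and the Ndrg1 promoter were not analysed here. For Ndrg1 and Pdk1, some of the genes with the most similar profiles are not reported here.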

Additional observations from a re-analysis of the deposited data

How the results depend on the processing

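Of the 8 member differences past the threshold as deposited, none changed sign under the 19 alternatives run for each. Of all 70 member values, 29 changed sign in at least 1 setting (10 with median ratios, 17 with a common sum), and none of these was past the threshold in either fit. The cause was not tested for any of the values below. Median ratios gave 398 called genes in KO IRI over KO control (167 as deposited), 1531 in WT IRI over WT control (729) with 2 members (1), 2639 in IRI over control averaged over genotype (1744), and 106 in KO over WT averaged over condition (2639) with 0 members (4). A common sum gave 54 genes with 0 members in KO IRI over KO control, 109 with 0 members in WT IRI over WT control, 1027 with 1 member in the averaged injury comparison, 0 in KO IRI over WT IRI (11 as deposited), and 14 with 0 members in KO over WT averaged. A pseudocount of 0.1 gave 10 genes in KO control over WT control (5 as deposited), and a pseudocount of 5 gave 3 there, 0 in KO IRI over WT IRI and 0 in the interaction (1 as deposited). With no filter the counts were 78 in KO IRI over KO control, 405 in WT IRI over WT control, 1081 with 1 member in the averaged injury comparison, 211 with 1 member in KO over WT averaged, and 3 in the interaction. Without KO control 1, WT IRI 3 and WT control 3 they were 40 with 0 members in KO IRI over KO control, 224 with 0 members in WT IRI over WT control, 1068 with 1 member averaged, 31 in KO control over WT control, 19 in KO IRI over WT IRI, 54 with 0 members in KO over WT averaged, and 28 in the interaction.

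Leaving out each library in turn gave 1 to 1 member and 44 to 848 genes in KO IRI over KO control, 1 to 1 and 255 to 917 in WT IRI over WT control, 1 to 2 and 1044 to 2615 in the averaged injury comparison, 0 to 1 and 4 to 1961 in KO control over WT control, 0 to 1 and 0 to 552 in KO IRI over WT IRI, 0 to 5 and 34 to 5898 in KO over WT averaged, and 0 to 0 and 2 to 12 in the interaction. The main fit did not pair libraries by replicate number, and a check by deviation correlations does not settle whether the numbers pair the samples. Deviations from means of 3 libraries constrain each other. The 18 same-number pairs had correlations of -0.0371 to 0.202 (median 0.0192) and 36 other pairs -0.147 to 0.119 (median -0.00843). Of the 12 libraries, 7 correlated best with their own number. With the replicate block, 3 genes were called in KO IRI over WT IRI and 1687 in KO over WT averaged, where Hif1a did not pass (adjusted p = 0.0651). Depth is unknown, so no limit from counting can be given for the low genes.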
